A study of Mus musculus with 18 samples.

Results

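The 32 genes described here make cholesterol and fatty acids or control that supply. They were taken from a list of gene symbols that was chosen with earlier results of these data known. The look-up in the deposited count table was by symbol alone. All 32 were found among the 46073 genes of the table, and all 32 were among the 18447 genes with enough counts to be tested. By role, 18 encode enzymes of sterol synthesis, 5 control the SREBP transcription factors, 1 (Stard4) carries sterol between membranes, 5 make, elongate or desaturate fatty acids, and 3 (Abca1, Abcg1 and Mylip) are targets of the oxysterol receptors LXR.

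The RNA came from splenic donor T cells sorted for viability, CD3 and CD45.2 on day 7 after haematopoietic stem cell transplantation, in 12 libraries that form 4 groups of 3. All donors were C57BL/6 mice aged 8 to 12 weeks, labelled as female, and their T cells either were wild type (WT) or lacked Wapl (Wapl KO), the factor that releases cohesin rings from chromosomes. Syngeneic WT and syngeneic Wapl KO cells were taken from recipients given 9.5 Gy and 8500000 donor T cells, and allogeneic WT and allogeneic Wapl KO cells from recipients given 8 Gy and 1000000. Every recipient also received 5000000 T cell depleted marrow cells. The syngeneic WT recipients were B6.SJL-Ptprca Pepcb/BoyJ mice and the allogeneic recipients BALB/c, with the strain CByJ.SJL(B6)-Ptprca/J also named. The labels of the syngeneic Wapl KO samples give the syngeneic transplant type but name CByJ.SJL(B6)-Ptprca/J as recipient, and those libraries were grouped by transplant type. Radiation dose and T cell number changed between the syngeneic and allogeneic arms together with the transplant type and, as labelled for WT, the recipient strain, so their effects cannot be told apart. For KO the labels leave the change of recipient strain unclear. Each library pooled 2 to 4 mice and used 100 ng of RNA depleted of ribosomal RNA. The Cre line, the deleted exons and the sex of the Wapl KO donors are not given separately in the labels.

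Cells build cholesterol from acetyl-CoA through mevalonate, squalene and lanosterol, and the same early steps supply isoprenoids for other lipids. When sterol in the endoplasmic reticulum is low, Scap escorts the SREBP proteins to the Golgi, where they are cut and released to switch on synthesis genes, while the Insig proteins hold Scap back when sterol is high. Excess sterol, as oxysterols, activates LXR, which raises the exporters Abca1 and Abcg1 and the ubiquitin ligase Mylip, which removes lipoprotein receptors. T cells that divide after activation are known to need both new sterol and new fatty acid for membranes.

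Libraries held between 45965645 and 89007094 counts, so counting error was small for most of these genes, and replicates of a group differed far more than counting noise. Ribosomal RNA took 20.2 to 23.1% of a library in WT and 24 to 32.1% in KO cells of syngeneic recipients. In allogeneic recipients it took 8.27 to 17.8% in WT and 16.1 to 18% in KO cells, so the arms did not overlap. Its part in the differences between the arms was tested only by leaving out ribosomal RNA genes. The first principal component (50.1% of the variance) separated syngeneic from allogeneic libraries, and the second (18.2%) set syngeneic KO replicate 1 apart, at 99.9 against 30.1 for the next library. Summed T cell markers stood between 1970 and 3910 counts-per-million (CPM) in every library, and all 7 were above 1 CPM in each group. The summed markers of red cell precursors (7 of the 8 listed genes were in the table) reached 1920 to 4400 CPM in WT and 20.9 to 85.2 in KO cells of syngeneic recipients, and 11.8 to 30.9 in WT and 11.7 to 17.7 in KO cells of allogeneic recipients. The 10 monocyte and macrophage markers summed to 74.2 to 262 CPM, 11.9 to 59.4, 94.1 to 154 and 39.7 to 109 in the same order of groups, and no listed marker of either type that was in the table was at 0 in all libraries of a group. Summed CPM of 4 Y-linked genes was 0.733 to 1.75 in the 6 WT libraries and 31.4 to 138 in the 6 KO libraries. Wapl itself, listed under its older symbol Wapal, was at 188 ± 20.8 CPM in WT and 135 ± 6.29 in KO cells of syngeneic recipients, and 161 ± 6.80 in WT and 140 ± 14.6 in KO cells of allogeneic recipients (mean ± SD, n = 3). It was called lower in the syngeneic KO (log2 fold change −0.48 ± 0.11 SE, edgeR adjusted p = 0.0368, and 0.0602 with the replicate number as a block) and not in the allogeneic KO (−0.20 ± 0.11, adjusted p = 0.963). Leaving out any KO library of the syngeneic comparison, or its WT replicate 2 or 3, ended that call (adjusted p from 0.0869 to 0.198). The call was also lost with upper quartile scaling (0.0778), without the filter on low counts (0.0515) and when only the syngeneic groups were fitted (0.0656). Leaving out any 1 allogeneic WT library ended it as well (adjusted p from 0.051 to 0.0661). Counts over the whole gene can include reads outside a deleted part, so how much of the gene was removed was not measured.

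Promoter sequences were read from RefSeq (GRCm38.p6, the build of the deposited files) to show what the members share upstream of their start sites. Of the 32 members, 25 matched, with 33 windows that run from 250 bases before to 50 after an annotated start. Fdps, Fdft1, Sqle, Stard4, Scd1, Scd2 and Abcg1 had no window and were not searched. Each window was searched on both strands for the SREBP motif TCACNCCAC, for CCAAT, the box bound by NF-Y, which is known to act beside SREBP, and for GGTCANNNNNGGTCA, the spacing of an LXR element. Matches of different motifs were counted separately. CCAAT was in 21 of the 33 windows (63.6%), against 37.4% of all 32851 windows of the same length, and in 14 of the 15 sterol synthesis genes with a window, the exception being Acat2. The SREBP motif was in 1 window (3.03%), that of Hmgcs1, against 1.24% of all windows. The LXR spacing was in none, against 0.0761% of all windows. At that share a match among 33 windows was unlikely beforehand, and of the LXR targets only Abca1 and Mylip had a window. These matches describe letters in short windows, and binding was not measured. The 4 sequences below stand for the main patterns of the data: Hmgcs1 opens the pathway and holds both motifs, Ebp and Insig2 were higher in allogeneic cells, and Fasn was lower. They show the 250 bases before the start, 5′ to 3′, with capitals marking CCAAT on either strand and, in Hmgcs1, the SREBP motif.
Hmgcs1 promoter, chr13:119690101-119690350, plus strand: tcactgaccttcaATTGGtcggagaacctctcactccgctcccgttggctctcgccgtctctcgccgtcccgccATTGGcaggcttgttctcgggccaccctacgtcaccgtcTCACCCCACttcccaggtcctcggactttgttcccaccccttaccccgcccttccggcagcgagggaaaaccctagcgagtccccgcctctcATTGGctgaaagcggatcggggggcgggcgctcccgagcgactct
Ebp promoter, chrX:8193513-8193762, minus strand: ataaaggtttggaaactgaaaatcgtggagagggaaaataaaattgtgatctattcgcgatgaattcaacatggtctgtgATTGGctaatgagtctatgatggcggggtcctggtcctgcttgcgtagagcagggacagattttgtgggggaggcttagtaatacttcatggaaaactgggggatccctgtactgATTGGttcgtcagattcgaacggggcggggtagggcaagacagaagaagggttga
Insig2 promoter, chr1:121332590-121332839, minus strand: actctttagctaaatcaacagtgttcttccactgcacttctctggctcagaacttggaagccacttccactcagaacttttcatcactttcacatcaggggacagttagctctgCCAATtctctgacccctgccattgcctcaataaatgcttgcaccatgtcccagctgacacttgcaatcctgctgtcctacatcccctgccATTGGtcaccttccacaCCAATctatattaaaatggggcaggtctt
Fasn promoter, chr11:120824548-120824797, minus strand: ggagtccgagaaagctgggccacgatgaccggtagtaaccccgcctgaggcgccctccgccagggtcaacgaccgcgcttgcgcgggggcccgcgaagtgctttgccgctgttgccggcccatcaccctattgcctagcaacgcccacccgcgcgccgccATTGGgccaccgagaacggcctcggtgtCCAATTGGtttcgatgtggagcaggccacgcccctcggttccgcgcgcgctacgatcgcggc
In the Hmgcs1 sequence the SREBP motif starts 137 bases before the start site and 3 copies of CCAAT surround it. Ebp holds 2 copies, Insig2 holds 3 and Fasn holds 3, of which the last pair overlap on opposite strands.

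The members spanned a wide range of abundance. Per kilobase of annotated exon, the mean of the 4 group means was highest for the fatty acid synthase Fasn at 34.4 CPM, followed by Srebf2 at 28.9, Scd2 at 25.1, Ebp at 23.0 and Srebf1 at 19.0. The pathway's other enzymes mostly lay between 2.01 (Hsd17b7) and 11.3 (Hmgcs1) CPM per kilobase. Tm7sf2 at 1.08, Abca1 at 1.03 and Scd1 at 0.403 were the lowest. Of the paired isoenzymes, Scd2 was therefore the main stearoyl-CoA desaturase transcript in every group, while Scd1, which lies nearby on chromosome 19, was near the low end of what was tested. Exons of Hmgcs1, Idi1, Srebf1 and Scap overlap another gene on the opposite strand, and those of Fdps overlap Gm43738 on the same strand.

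In bulk libraries a lower level of a gene can come from fewer cells that express it or from less RNA per cell, which cannot be told apart. The replicates are described as independent pools of mice, and the spread behind each p-value was estimated over all 4 groups. Values with the replicate number as a block are alternatives only. Between the arms, same-numbered libraries did not regularly deviate together (correlation r over genes from −0.135 to 0.0183 in WT and from −0.317 to 0.423 in KO).

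Between allogeneic and syngeneic recipients every sterol synthesis gene that passed the test was higher in allogeneic cells and every fatty acid synthesis gene that passed was lower. Of the 18 sterol genes only 3 passed in WT and 1 in KO, near or under the share of all tested genes called higher (16.4% and 13.2%). Of the 5 fatty acid genes 3 passed in WT and 4 in KO, beside 15.9% and 11.2% of all genes called lower. Upper quartile scaling, which lowers the median of all genes to −0.13, added a sterol gene to the falls, Fdps, at −0.46 in WT (adjusted p = 0.0302) and −0.49 in KO (0.0275). In WT cells 5 members were called higher and 4 lower. The background was high, since 16.4% of all tested genes were called higher and 15.9% lower, so these counts are close to what the same share of 32 genes would give. In Wapl KO cells 3 members were called higher, beside 13.2% of all genes, and 7 lower, beside 11.2%. Every call here is an edgeR quasi-likelihood test whose adjusted p (Benjamini-Hochberg, across all 18447 genes) was under 0.05. Stard4, Ebp and Insig2 were called higher in both genotypes, that is 3 of the 5 WT calls and 3 of the 3 KO calls. Fasn, Elovl6 and Scd1 were called lower in both, 3 of the 4 WT calls and 3 of the 7 KO calls. The remaining calls were made in 1 genotype: Pmvk and Sc5d higher and Insig1 lower in WT, and Scd2, Abca1, Abcg1 and Mylip lower in KO. For 19 members neither genotype gave a call. The median log2 fold change of the members was 0.08 in WT and 0.02 in KO, beside −0.03 and −0.02 over all tested genes. How far the effect of the transplant depended on genotype was tested for every gene as an interaction, and no member passed (0.477% of all genes did). Unadjusted, 3 members had an interaction p under 0.05, Scd2, Abca1 and Abcg1, beside 6.2% of all genes, and DESeq2 called 1, Scd2, beside 1.59%.

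**Figure D1:**
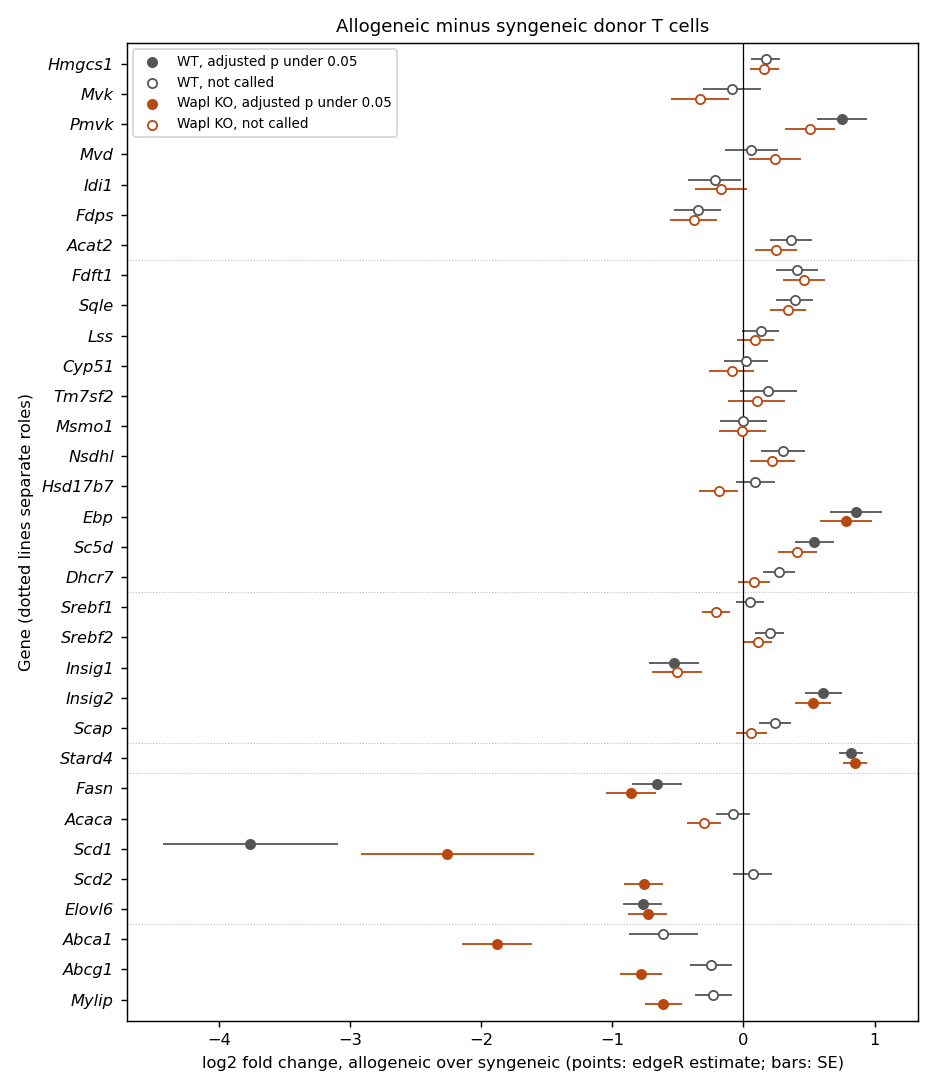
Log2 fold change of allogeneic over syngeneic libraries for each of the 32 genes (points, bars are SE), in WT and in Wapl KO cells. Filled points passed an adjusted p of 0.05. Stard4, Ebp and Insig2 lie to the right in both genotypes and Fasn, Elovl6 and Scd1 to the left in both, while most sterol enzymes lie near 0.

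The mevalonate steps gave 1 call among 7 genes, in WT, near the 16.4% of all tested genes called higher there. Pmvk (chromosome 3, 89454541 to 89469013, plus strand), which adds the second phosphate to mevalonate, was at 10.6, 10.5 and 9.68 CPM in WT and 17.5, 11.9 and 11.7 in KO cells of syngeneic recipients, and 20.5, 15.8 and 15.5 in WT and 19.9, 22.8 and 15.6 in KO cells of allogeneic recipients. All allogeneic WT libraries were above all syngeneic WT libraries, while in KO the groups overlapped because syngeneic KO replicate 1 was high. Pmvk rose in allogeneic WT cells (log2 fold change 0.75 ± 0.19 SE, adjusted p = 0.00921), and the KO estimate was 0.51 ± 0.19 (adjusted p = 0.0705, and 0.0354 with the replicate block). The other 6, Acat2, Hmgcs1, Mvk, Mvd, Idi1 and Fdps, which run from the joining of acetyl-CoA units to farnesyl diphosphate, were not called. Their log2 fold changes ran from −0.35 (Fdps) to 0.36 (Acat2) in WT and from −0.38 (Fdps) to 0.25 (Acat2) in KO. Acat2 has a close copy, Acat3, at group means of 15.4 to 18.2 CPM, and reads of the pair could be split between them in counting.

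The 11 squalene and sterol steps gave 2 calls in WT and 1 in KO, all higher. These counts are near the shares of all tested genes called higher, 16.4% in WT and 13.2% in KO. Ebp (chromosome X, 8185329 to 8193512, minus strand), the sterol isomerase that moves a ring double bond late in the pathway, was at 38.8, 31.6 and 33.7 CPM in WT and 53.2, 39.4 and 34.5 in KO cells of syngeneic recipients, and 70.8, 57.2 and 60.5 in WT and 73.5, 92.4 and 51.9 in KO cells of allogeneic recipients. Groups were separate in WT and overlapped in KO, where syngeneic replicate 1 exceeded allogeneic replicate 3. Ebp rose by 0.86 ± 0.20 on the log2 scale in WT (adjusted p = 0.00648) and by 0.78 ± 0.20 in KO (adjusted p = 0.0141). The KO call was lost without syngeneic KO replicate 2 (adjusted p = 0.0593) or replicate 3 (0.0619), and when only the KO groups were fitted (0.0550). Sc5d (chromosome 9, 42251595 to 42264256, minus strand), the desaturase that acts next in the pathway, was at 20.7, 17.7 and 16.4 CPM in WT and 23.5, 19.4 and 20.7 in KO cells of syngeneic recipients, and 29.5, 26.6 and 23.4 in WT and 27, 33.1 and 24.5 in KO cells of allogeneic recipients. No allogeneic library of a genotype fell within the syngeneic range. Sc5d rose in WT (0.54 ± 0.15, adjusted p = 0.0152), a call lost without syngeneic WT replicate 2 (0.0560) or 3 (0.0700) or allogeneic WT replicate 1 (0.0639). Its KO estimate was 0.41 ± 0.15 (adjusted p = 0.0602, and 0.0424 with the replicate block).

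The enzymes around squalene came close to the threshold. Fdft1, which joins farnesyl units into squalene, stood at a log2 fold change of 0.41 ± 0.16 (adjusted p = 0.0656) in WT, while KO gave 0.46 ± 0.16 (0.0518, and 0.0403 with the replicate block). Its exons overlap those of Ctsb on the opposite strand, and whether the counting used strand is not known. Sqle, which oxidises squalene and is often rate limiting, gave 0.39 ± 0.14 in WT (0.0512, and 0.0494 with the block) and 0.34 ± 0.14 in KO (0.0995). Dhcr7, the last reductase, was called in WT with the block (0.27, adjusted p = 0.0415) and not without it (0.0981). Lss, Cyp51, Tm7sf2, Msmo1, Nsdhl and Hsd17b7, which close the rings and strip methyl groups, had log2 fold changes between 0.00 and 0.30 in WT and between −0.19 and 0.22 in KO. Exons of Lss and Cyp51 overlap genes on the opposite strand, and those of Tm7sf2 overlap Vps51 on the same strand. Summed over the 18 sterol synthesis genes, libraries held 331 to 368 CPM in WT and 376 to 466 in KO cells of syngeneic recipients, and 398 to 463 in WT and 382 to 534 in KO cells of allogeneic recipients. The WT sums did not overlap and the KO sums did. The summed T cell markers separated the WT groups as well, at 1970 to 2620 CPM in syngeneic and 2720 to 3050 in allogeneic libraries, with Cd3e (0.57, adjusted p = 0.0317) and Cd2 (0.80, 0.0322) called higher, and their part in the sterol sums was not tested.

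Among the 5 SREBP regulators 1 was called higher and 1 lower in WT, and 1 higher in KO. These counts are near the shares of all tested genes, 16.4% higher and 15.9% lower in WT and 13.2% higher in KO. The calls fell on the Insig pair, in opposite directions. Insig2 (chromosome 1, 121304353 to 121332589, minus strand) was at 9.43, 8.51 and 6.93 CPM in WT and 9.65, 8.18 and 8.67 in KO cells of syngeneic recipients, and 13.2, 12.0 and 12.8 in WT and 13.2, 13.2 and 12.0 in KO cells of allogeneic recipients, so every allogeneic library was above every syngeneic one. It rose by 0.61 ± 0.14 on the log2 scale in WT (adjusted p = 0.00564) and by 0.53 ± 0.14 in KO (adjusted p = 0.0155). The KO call was lost without syngeneic KO replicate 2 (0.0739) or 3 (0.0511). Insig1 (chromosome 5, 28071363 to 28078662, plus strand), a close relative that is itself a well-known SREBP target, was at 31.9, 31.9 and 26.8 CPM in WT and 40.4, 26 and 25.4 in KO cells of syngeneic recipients, and 24.2, 20.3 and 18.2 in WT and 21.3, 24.4 and 18.6 in KO cells of allogeneic recipients. Every allogeneic library was below every syngeneic one. Insig1 fell in WT (−0.53 ± 0.19, adjusted p = 0.0424), and its KO estimate was −0.51 ± 0.19 (0.0616, and 0.0309 with the replicate block). The WT call did not survive the removal of any 1 syngeneic WT library (0.108, 0.127 and 0.0540 for replicates 1, 2 and 3), of allogeneic WT replicate 2 (0.0939) or 3 (0.123), or of allogeneic KO replicate 1 (0.0594). Srebf1, Srebf2 and Scap were not called, with log2 fold changes of 0.05, 0.20 and 0.24 in WT and −0.21, 0.11 and 0.06 in KO, each with an SE of 0.11 or 0.12.

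Stard4, a soluble protein that carries cholesterol between membranes and is known as an SREBP target, gave the clearest rise of the 32 genes. It was at 33.0, 35.2 and 34.4 CPM in WT and 37.3, 35.8 and 35.0 in KO cells of syngeneic recipients, and 62.3, 60.3 and 57.9 in WT and 67.4, 66.0 and 61.5 in KO cells of allogeneic recipients. The replicates were tight and the gap between syngeneic and allogeneic libraries was several times the spread within a group. It rose by 0.82 ± 0.09 on the log2 scale in WT (adjusted p = 2.16e-05) and by 0.85 ± 0.09 in KO (adjusted p = 2.14e-05), and the interaction estimate was 0.04 ± 0.13 (adjusted p = 1).

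**Figure D2:**
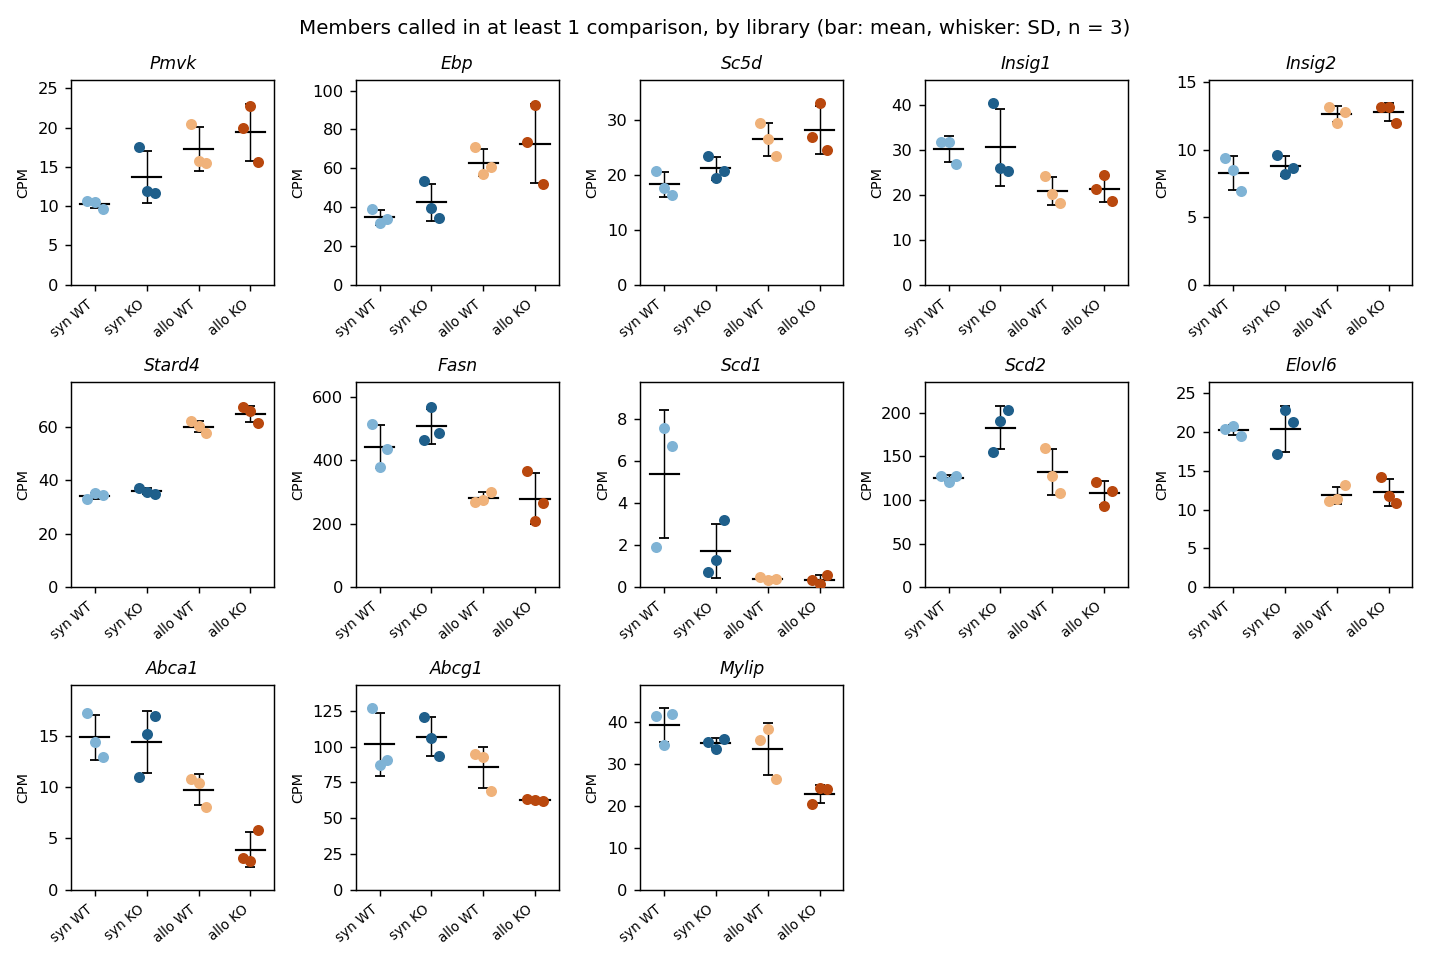
CPM in each of the 12 libraries (points) for the 13 genes called in at least 1 comparison, with the mean (bar) and SD (whisker) of each group of 3. Each panel has its own axis from 0. The allogeneic points of Stard4 and Insig2 lie above all syngeneic points, those of Fasn and Elovl6 lie below them, and Abca1 is lowest in allogeneic KO.

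The 5 fatty acid genes gave 3 calls in WT and 4 in KO, all lower, beside 15.9% and 11.2% of all tested genes. Fasn (chromosome 11, 120805846 to 120824547, minus strand), which assembles palmitate, was at 513, 378 and 436 CPM in WT and 464, 568 and 486 in KO cells of syngeneic recipients, and 269, 273 and 301 in WT and 366, 207 and 264 in KO cells of allogeneic recipients. All 6 allogeneic libraries were below all 6 syngeneic ones. Fasn fell by 0.66 ± 0.19 on the log2 scale in WT (adjusted p = 0.0177) and by 0.86 ± 0.19 in KO (adjusted p = 0.00496). The WT call was lost without syngeneic WT replicate 1 (0.0704), allogeneic WT replicate 1 (0.0616) or allogeneic WT replicate 2 (0.0591). Elovl6 (chromosome 3, 129532355 to 129638495, plus strand), which lengthens palmitate to stearate, was at 20.4, 20.7 and 19.5 CPM in WT and 17.1, 22.8 and 21.3 in KO cells of syngeneic recipients, and 11.1, 11.3 and 13.1 in WT and 14.2, 11.7 and 10.8 in KO cells of allogeneic recipients. The groups did not overlap in either genotype. Elovl6 fell by 0.77 ± 0.15 in WT (adjusted p = 0.00148) and by 0.73 ± 0.15 in KO (adjusted p = 0.00280). Its exons overlap Gm35986 on the opposite strand. Acaca, which makes the malonyl-CoA that Fasn uses, was not called, at −0.08 ± 0.13 in WT (adjusted p = 0.688) and −0.30 ± 0.13 in KO (0.121).

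The stearoyl-CoA desaturases, which put the first double bond into stearate, differed from each other. Scd2 (chromosome 19, 44293674 to 44306864, plus strand), the abundant one, was at 127, 121 and 127 CPM in WT and 155, 191 and 203 in KO cells of syngeneic recipients, and 160, 127 and 108 in WT and 121, 93.5 and 110 in KO cells of allogeneic recipients. The highest group was syngeneic KO and the lowest allogeneic KO, and these did not overlap, while the WT groups overlapped. Scd2 fell in allogeneic KO cells (−0.76 ± 0.15, adjusted p = 0.00300) and showed 0.07 ± 0.15 in WT (adjusted p = 0.737). The interaction estimate was −0.83 ± 0.22 (unadjusted p = 0.00201, edgeR adjusted p = 0.175, DESeq2 adjusted p = 0.0308), so edgeR did not call the difference between genotypes and DESeq2 did. Scd1 (chromosome 19, 44394455 to 44407879, minus strand) was at 1.90, 7.60 and 6.71 CPM in WT and 0.703, 1.31 and 3.19 in KO cells of syngeneic recipients, and 0.486, 0.326 and 0.389 in WT and 0.328, 0.15 and 0.593 in KO cells of allogeneic recipients, which is 9 to 41 counts in an allogeneic KO library and 122 to 444 in a syngeneic WT library. It fell by 3.76 ± 0.67 in WT (adjusted p = 0.00111) and by 2.26 ± 0.66 in KO (adjusted p = 0.0253). The KO call was lost without syngeneic KO replicate 3 (0.122) or allogeneic KO replicate 1 (0.0752) or 2 (0.1), and when only the KO groups were fitted (0.0619).

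The level of Scd1 followed the markers of other cells in part. The red cell precursor sum was highest in syngeneic WT and within it lowest in replicate 1 (1920 CPM against 4400 as the highest), the library in which Scd1 was lowest of its group. Within syngeneic KO the highest red cell sum, 85.2 CPM, and the highest monocyte and macrophage sum, 59.4 CPM, were both in replicate 3, which had the highest Scd1. In allogeneic KO the highest red cell sum, 17.7 CPM, was in replicate 2, where Scd1 was lowest, and allogeneic WT had a higher monocyte and macrophage sum (94.1 to 154 CPM) than syngeneic KO (11.9 to 59.4) with less Scd1. Their part in the Scd1 result was not tested. The red cell sum also differed between the arms in KO, at 20.9 to 85.2 CPM in syngeneic and 11.7 to 17.7 in allogeneic libraries, and its part in the falls of Fasn and Elovl6 was not tested.

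**Figure D3:**
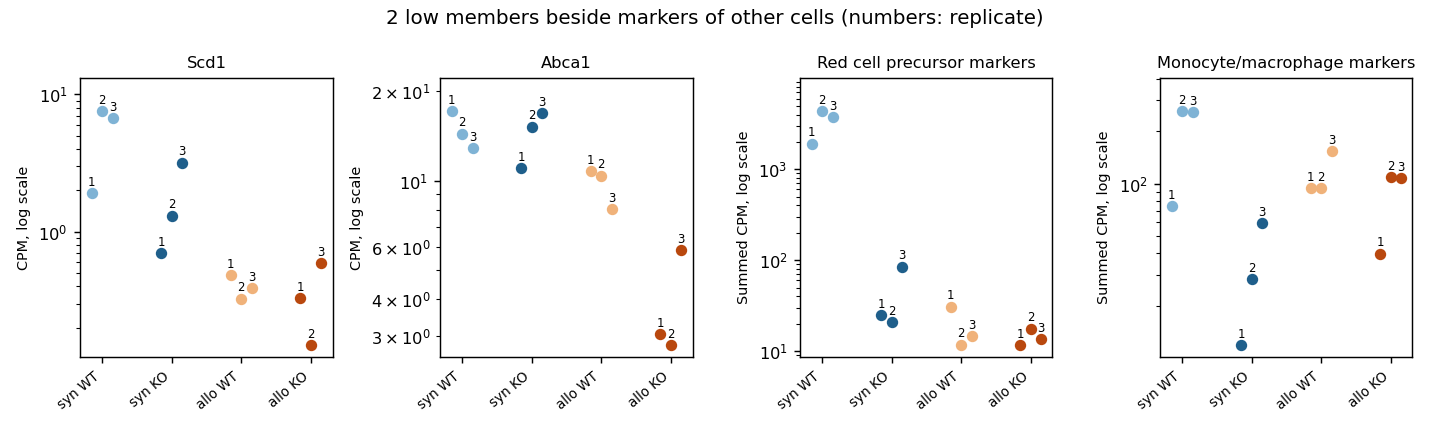
CPM of Scd1 and Abca1 and summed CPM of 7 red cell precursor and 10 monocyte and macrophage markers in each library, on log axes, with the replicate number beside each point. Scd1 and the red cell markers are both highest in syngeneic WT, and replicate 1 is the lowest of that group in both.

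All 3 LXR targets were called lower in allogeneic KO than in syngeneic KO cells, beside 11.2% of all tested genes. None was called in WT, where 15.9% of all tested genes were called lower. Abca1 (chromosome 4, 53030787 to 53159895, minus strand), which exports cholesterol to lipid-poor acceptors, was at 17.2, 14.4 and 12.9 CPM in WT and 11, 15.2 and 16.9 in KO cells of syngeneic recipients, and 10.8, 10.4 and 8.03 in WT and 3.05, 2.80 and 5.85 in KO cells of allogeneic recipients. Allogeneic KO was below every other library of the study used here. Abca1 fell in KO (−1.88 ± 0.27, adjusted p = 2.73e-04), and its WT estimate was −0.61 ± 0.26 (adjusted p = 0.0916, and 0.00893 when only the WT groups were fitted). Abcg1 (chromosome 17, 31057675 to 31117988, plus strand), which exports sterol to high density lipoprotein, was at 127, 86.9 and 90.9 CPM in WT and 121, 106 and 93.7 in KO cells of syngeneic recipients, and 94.6, 92.8 and 68.9 in WT and 63.1, 62.6 and 61.7 in KO cells of allogeneic recipients. The allogeneic KO replicates were nearly equal and below all others. Abcg1 fell in KO (−0.78 ± 0.16, adjusted p = 0.00393) and was at −0.25 ± 0.16 in WT (adjusted p = 0.256). Mylip (chromosome 13, 45389742 to 45412022, plus strand) was at 41.4, 34.6 and 41.9 CPM in WT and 35.3, 33.6 and 36.0 in KO cells of syngeneic recipients, and 35.7, 38.5 and 26.5 in WT and 20.5, 24.3 and 24.0 in KO cells of allogeneic recipients. It fell in KO (−0.61 ± 0.14, adjusted p = 0.00784) and was at −0.23 ± 0.14 in WT (adjusted p = 0.241). The interaction was not called for any of the 3, at −1.27 ± 0.37 for Abca1 (unadjusted p = 0.00476, adjusted p = 0.276), −0.53 ± 0.23 for Abcg1 (adjusted p = 0.747) and −0.38 ± 0.20 for Mylip (adjusted p = 0.939). Without allogeneic KO replicate 3 the Abca1 interaction was −1.69 with an adjusted p of 0.0363.

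**Figure D4:**
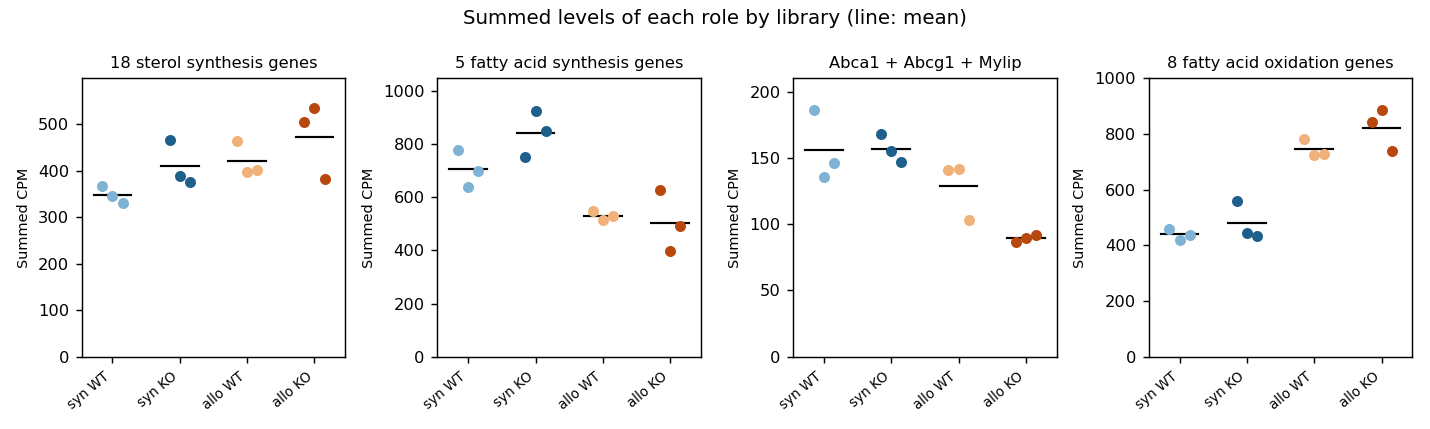
Summed CPM by library (points, line at the group mean) of the 18 sterol synthesis genes, the 5 fatty acid synthesis genes, the 3 LXR targets and, for comparison, 8 fatty acid oxidation genes. Fatty acid synthesis sums are lower and oxidation sums higher in allogeneic libraries, and the LXR target sum is lowest in allogeneic KO, at 86.6 to 91.6 CPM.

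Loss of Wapl in syngeneic recipients gave no call among the 32 genes, beside 3.37% of all tested genes called in either direction. Unadjusted, 5 members had a p under 0.05, beside 14% of all genes, and DESeq2 called 2, Hmgcs1 (adjusted p = 0.0447) and Scd2 (0.0265), beside 5.52%. Both counts are near the background. The small differences leaned one way: 29 of 32 log2 fold changes were above 0, against 57.0% of all genes, with a median of 0.17 against 0.06. All 18 sterol synthesis genes were above 0, between 0.09 and 0.42 with a median of 0.22. The same lean was seen in some other lists: all 7 T cell markers were above 0, with a median of 0.29, and 9 of 10 proliferation genes, with a median of 0.24. Of 8 fatty acid oxidation genes 7 were above 0, with a median of 0.07. Further lists did not lean so, with 9 of 16 other genes of fatty acid supply, elongation and desaturation above 0. The same was true of 3 of 6 LXR receptor and other target genes and 3 of 6 genes of sterol storage and oxysterols. None of the 7 red cell precursor or 10 monocyte and macrophage markers was above 0. In 6 members every KO library was above every WT library, beside 13.2% of all genes, and in none was every KO library below, beside 10.1%. The 6 were Acat2, Hmgcs1, Idi1, Pmvk, Hsd17b7 and Scd2. Hmgcs1 (chromosome 13, 119690379 to 119708260, plus strand), the SREBP target that commits acetyl-CoA units toward mevalonate, was at 45.5, 42.8 and 40.3 CPM in syngeneic WT and 60.5, 51.0 and 54.8 in syngeneic KO (0.37 ± 0.11, edgeR adjusted p = 0.117). For Scd2 the estimate was 0.55 ± 0.15 (adjusted p = 0.0802), and for Hsd17b7 0.39 ± 0.15 (0.239). Scd1 was at −1.64 ± 0.61 (0.233), with the groups overlapping.

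Same-numbered syngeneic WT and KO libraries deviated together (r from 0.170 to 0.545 over genes). However, WT replicate 2 with KO replicate 3 gave 0.363, and the labels state no pairing. The fit of the syngeneic libraries with the replicate number as a block is therefore given as an alternative only. In it Scd2 rose (0.50, adjusted p = 0.0170) and Scd1 fell (−1.72, adjusted p = 0.00856), and no other member was called. The 2 calls stand beside 7.29% of all 17656 genes tested in that fit, and the fit of all 12 libraries with the block called no member (6 had an unadjusted p under 0.05). The red cell and monocyte marker sums given above also differed between these groups, as did the Y-linked sums. Their part in these differences was not tested, and genotype and the Y-linked difference cannot be told apart in either kind of recipient.

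In allogeneic recipients Wapl loss also gave no call among the members, beside 0.0542% of all tested genes (10 genes). Unadjusted, 4 members had a p under 0.05, Hmgcs1, Abca1, Abcg1 and Mylip, beside 4.18% of all genes, and DESeq2 called 1, Abca1 (adjusted p = 0.00180), beside 0.417%. Log2 fold changes were above 0 in 21 of 32 members, beside 55.1% of all genes, with a median of 0.06 beside 0.03. Of the 18 sterol synthesis genes 17 were above 0, with a median of 0.14, beside all 10 proliferation genes with a median of 0.37. Hmgcs1 was at 50.2, 45.7 and 48.9 CPM in allogeneic WT and 68.2, 63.6 and 54.0 in allogeneic KO, and together with Tm7sf2 it made up the 2 members with every KO library above every WT library, beside 3.29% of all genes. Its log2 fold change, 0.36 ± 0.11 (edgeR adjusted p = 0.862), was close to the syngeneic value, with an interaction estimate of −0.01 ± 0.16. In 3 members every KO library was below every WT library, beside 4.37% of all genes, and these were the LXR targets. Their estimates were −1.31 ± 0.27 for Abca1 (unadjusted p = 3.04e-04, adjusted p = 0.244), −0.45 ± 0.16 for Abcg1 (0.963) and −0.55 ± 0.14 for Mylip (0.477). Without allogeneic KO replicate 3, whose Abca1 level was the highest of its group, Abca1 was called lower (−1.73, adjusted p = 0.0102). The monocyte and macrophage marker sum was 94.1 to 154 CPM in allogeneic WT and 39.7 to 109 in allogeneic KO, and its part in the Abca1 difference was not tested.

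**Figure D5:**
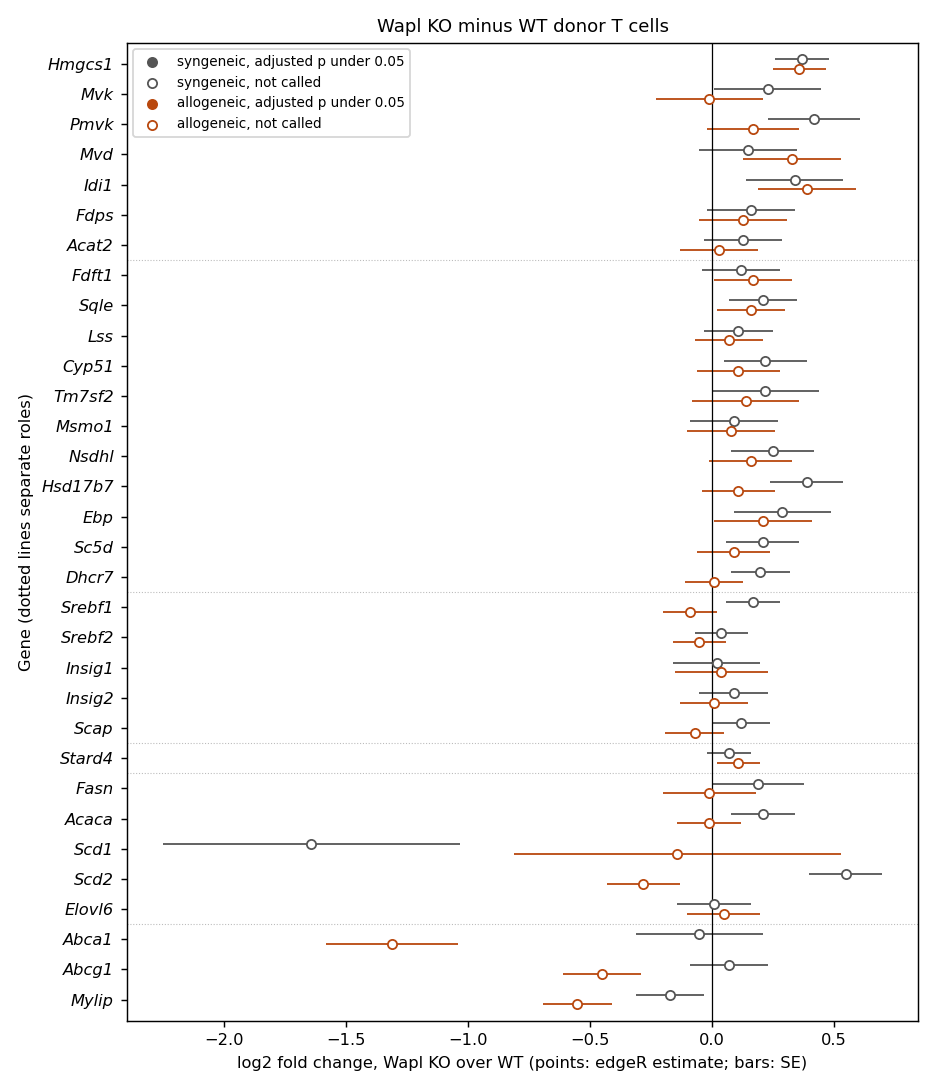
Log2 fold change of Wapl KO over WT (points, bars are SE) in syngeneic and in allogeneic recipients. No point passed an adjusted p of 0.05, so all are open. In syngeneic cells 29 of 32 points lie above 0, and in allogeneic cells Abca1, Abcg1 and Mylip lie furthest to the left.

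Genes around the pathway, taken from further lists, placed these values in context. Among 16 tested genes of fatty acid supply, elongation and desaturation, 5 were higher and 2 lower in WT, and 4 higher and 3 lower in KO. Of all tested genes 16.4% were higher and 15.9% lower in WT, and 13.2% higher and 11.2% lower in KO. The rises included Elovl1, which elongates very long chains (0.79 in WT, adjusted p = 1.43e-04, and 0.52 in KO, 0.00359), and the dehydratase Hacd2 of the same cycle (0.82, 0.00540, and 1.14, 8.03e-04). The acyl-CoA synthetase Acsl3 fell from 3.85 ± 0.334 to 1.06 ± 0.565 CPM in WT (−1.87, 6.47e-04) and from 3.88 ± 0.116 to 1.02 ± 0.153 in KO (−1.92, 7.57e-04). The list's name therefore covers genes that moved both ways. Some of its calls were not stable. When only the KO groups were fitted, the KO calls of Slc25a1 (lower, 0.0903), Elovl5 (lower, 0.0809) and Acsl5 (higher, 0.0614) were lost. Leaving out 1 library also ended each of these in some runs. The WT call of Acly (higher) was lost without any 1 allogeneic WT library (adjusted p from 0.0577 to 0.0715). DESeq2 added Fads2 to the falls in WT (0.00806) and KO (0.0179).

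Fatty acid oxidation, the opposite process, gave 4 calls of 8 in WT and 3 of 8 in KO, all higher. Over all tested genes 16.4% were called higher in WT and 13.2% in KO. Cpt1a, which admits fatty acids to mitochondria, went from 71.0 ± 3.08 to 228 ± 20.1 CPM in WT (1.68, adjusted p = 8.21e-07) and from 70.4 ± 3.94 to 234 ± 33.7 in KO (1.73, 9.35e-07). Acadl, a dehydrogenase of the cycle, rose by 1.06 and 1.23 on the log2 scale (4.62e-04 and 2.15e-04), and the carnitine carrier Slc25a20 by 0.83 and 0.99 (3.30e-04 and 1.15e-04). Cpt2, the partner of Cpt1a inside mitochondria, rose in WT (0.59, 0.00822). The oxidation sum was 421 to 460 CPM in WT and 433 to 560 in KO cells of syngeneic recipients, and 724 to 783 in WT and 739 to 886 in KO cells of allogeneic recipients. In the same libraries the 5 fatty acid synthesis genes summed to 638 to 779, 752 to 926, 514 to 549 and 398 to 626 CPM.

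Among 6 LXR receptor genes and other LXR targets, the partner receptor Rxra was higher in allogeneic WT (0.92, adjusted p = 0.00125), at 38.0 ± 2.92 CPM in WT and 42.5 ± 2.04 in KO cells of syngeneic recipients, and 71.8 ± 16.6 in WT and 44.1 ± 8.00 in KO cells of allogeneic recipients. In KO the lipid transfer protein Pltp was lower (−0.86, 0.0117), and Nr1h3, which encodes LXR alpha, was higher (1.54, 0.0386) at group means under 1 CPM. Of all tested genes 16.4% were called higher in WT, and 13.2% higher and 11.2% lower in KO. In KO 5 of the 6 genes were above 0. The other targets Smpdl3a and Lpcat3 were not called in KO by the main fit. Smpdl3a was called higher without syngeneic KO replicate 1 (0.81, 0.00716), and Lpcat3 without allogeneic KO replicate 2 (0.43, 0.0383). The Nr1h3 call was lost with the replicate block (0.0540) and when only the KO groups were fitted (0.124). It was also lost without syngeneic KO replicate 2 (0.0558) or 3 (0.0816) or allogeneic KO replicate 2 (0.112). Leaving out syngeneic WT replicate 2 or 3 or allogeneic WT replicate 3 ended it as well (adjusted p from 0.0503 to 0.0534). The main LXR transcript was Nr1h2, at group means of 71.2 to 87.1 CPM. Among 6 tested genes of sterol storage and oxysterols, the sterol-binding protein Osbp was higher in both genotypes (0.48, 0.00210, and 0.43, 0.00549), Soat1, which esterifies cholesterol, was higher in KO (0.41, 0.0134), and Cyp27a1 was lower in WT at group means under 1 CPM (−2.71, 0.0222). The Cyp27a1 call was lost without replicate 2 or 3 of either WT group (adjusted p from 0.0633 to 0.106). For Soat1 the KO call was lost when only the KO groups were fitted (0.0676), and without syngeneic KO replicate 3 (0.0569) or allogeneic KO replicate 1 (0.0518). None of 10 proliferation genes was called by the main edgeR fit in either genotype (1 had an unadjusted p under 0.05 in each, and DESeq2 called Ccnb1 higher in KO at 0.0458), and their sum ran from 2730 to 4790 CPM over the 12 libraries. Other edgeR runs called Mcm2 lower in WT, with upper quartile scaling (−0.46, 0.0324) and when only the WT groups were fitted (−0.35, 0.032). Without allogeneic KO replicate 1 Mcm2 was called lower in KO (−0.49, 0.0387). Without allogeneic KO replicate 3 Ccnb1 was called higher in WT (0.57, 0.0493) and KO (0.88, 0.0135), and Cdk1 in KO (0.73, 0.0153). In the fit of all 12 libraries without the block, 1 gene of these lists was called between KO and WT: Lpin2, a phosphatidate phosphatase, was lower in syngeneic KO (−0.85 ± 0.18, adjusted p = 0.0216). That call ended when syngeneic WT replicate 2 (0.127) or 3 (0.0950), or syngeneic KO replicate 1 (0.0701) or 3 (0.0546), was left out. The syngeneic fit with the block also called Lpcat3 (−0.44, 0.0285), Cyp27a1 (−2.58, 0.0136) and Mki67 (−0.46, 0.0417) lower in KO, and DESeq2 called Rxra lower in allogeneic KO (−0.71, 0.0302).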

How the data were processed

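Total RNA was sequenced from 12 libraries of donor T cells. The authors deposited expected counts for each gene, in which 94.5 to 95.0% of values per library were whole numbers. Per the submitters' processing notes, the tools were Bowtie2 2.2.1, TopHat2 2.0.13, Cuffdiff 2.2.1 and Cufflinks, with the build GRCm38. Which tool made the counts, its annotation and its strand setting are not given in the sources used here. The labels describe 18 samples: 6 naive samples matched no column and were not analysed here, and 6 further columns matched no sample by name and were not used.

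Counts were rounded and fitted with edgeR 4.0.16 (R 4.3.3, limma 3.58.1): TMM scaling, filterByExpr with a count minimum of 10, 1 mean per group, and a robust quasi-likelihood fit with 8 residual degrees of freedom from the 4 groups of 3 (biological coefficient of variation 0.249). Tests were two-sided, adjusted over 18447 genes and called under 0.05. SE is the absolute log2 fold change over the square root of F. CPM use TMM-adjusted library sizes, and lengths and positions come from GENCODE M21 on GRCm38. The script was tested on simulated counts.

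The members and lists were chosen with earlier results of these data known. All members are covered: values in every library are given for those called, or with separate groups and a log2 fold change of at least 1. For the other lists, counts and up to 4 called genes by p are given. The list of other isoprenoid and SREBP processing genes is not reported here. Same-numbered libraries deviated together between syngeneic WT and KO (threshold r of 0.1), but some libraries of different number did so too. In no other pair of groups did every same-numbered pair pass that threshold, and the labels do not state such a pairing. Alternatives covered scaling, filters, ribosomal RNA genes, the replicate block, fewer groups, DESeq2 1.42.0 and each library left out.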

Additional observations from a re-analysis of the deposited data

How the results depend on the processing

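No called member changed sign under any alternative run. In WT cells, members higher in allogeneic libraries numbered 8 rather than 5 when only those groups were fitted, and 4 to 8 with 1 library left out. The fit of those groups alone called 3990 of all 17683 genes higher, where the main fit called 3023 of 18447. Members lower numbered 2 to 5 with 1 library left out, the 2 coming without syngeneic WT replicate 1 or allogeneic WT replicate 2. Runs with 1 library left out called 2140 to 3686 of all genes higher and 1970 to 3215 lower in WT. In KO cells, members higher rose from 3 to 5 with RLE scaling, 6 without ribosomal RNA genes, 5 without those genes plus Gm26917 and Yam1 (chosen after seeing the data), 6 with the replicate block and 6 with DESeq2. Over all genes the calls higher rose too, from 2439 to 2570, 2836, 2627, 2523 and 3004 in the same order. Leaving out 1 library gave 1 to 7, with 1 without syngeneic KO replicate 2 or 3, 6 without syngeneic KO replicate 1 and 7 without allogeneic KO replicate 3. Over all genes these runs gave 1620 to 3277 calls higher, 1620 without syngeneic KO replicate 2 and 3277 without its replicate 1. Upper quartile scaling moved the median of all genes to −0.13 in both genotypes and gave 3 members higher and 10 lower in KO. Of all 18447 genes it called 2012 higher and 2585 lower in KO. Between KO and WT in syngeneic recipients, the syngeneic-only fit with the replicate block called 1 member higher and 1 lower, DESeq2 called 2 higher, and leaving out 1 library gave 0 to 1 higher. Of all genes, that block fit called 7.29% and DESeq2 5.52%. In allogeneic recipients DESeq2 called 1 lower, beside 0.417% of all genes in either direction, and leaving out 1 library gave 0 to 1. The interaction gave 1 lower with DESeq2, beside 1.59% of all genes in either direction, and 0 to 1 with 1 library left out. The cause of these shifts was not tested. Depth limits mainly Scd1, at 9 to 41 counts in allogeneic KO libraries.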
